A study of Mus musculus with 10 samples.

Results

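Interferon-stimulated genes are the genes that cells switch on when interferon reaches them, and 43 of them were followed here in mouse liver after siRNA against Rab5 was delivered in lipid nanoparticles. The 43 were listed by symbol, and every probe set that the array annotation gives 1 of those symbols was taken, 66 of 45101 in all. They covered 40 of the 43 genes, of 18193 genes with a named probe set. The number tested was 39 of 12855 genes, since Mx1 lay below the filter on dim probe sets in the livers of all 3 groups. Isg15, Ifi44 and Oas1g were not analysed here; the Isg15 probe set carries the symbol of Gm9706 too.

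RNA was measured on Affymetrix arrays in livers of male C57BL/6 NHsd mice, taken on day 5 after an injection into the tail vein. The groups were PBS alone (2 arrays), nanoparticles with a control siRNA at 1.5 mg/kg (4 arrays) and nanoparticles with siRNA against Rab5all at 1.5 mg/kg (4 arrays). The titles call the control a scrambled RNA, whereas the series' design text speaks of luciferase, so it is called the control siRNA. No second set of Rab5 siRNAs was among the samples, so silencing of Rab5 and any other effect of these siRNAs on the members cannot be told apart.

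Double-stranded RNA inside a cell is recognised by the RNA sensors RIG-I (Ddx58) and MDA5 (Ifih1), which act through the adaptor Mavs, and RNA taken up into endosomes is recognised by Toll-like receptors. Both routes lead to interferon, which binds its receptor, activates the kinases Jak1 and Tyk2 and leads to transcription through the interferon-stimulated response element (ISRE) in promoters, where Stat2 and Irf9 act. Interferon gamma acts through its own receptor and the GAS element, and Cxcl9 is among its targets. Rab5 is the small GTPase of early endosomes. Both kinds of nanoparticle carried RNA, so the design holds a comparison of control particles with PBS and a comparison of Rab5 siRNA with the control siRNA.

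Values are the deposited log2 values, differences are log2 differences of group means with the standard error (SE) of limma's fit over all genes, and a gene was called at a Benjamini-Hochberg adjusted p under 0.05. The targeted genes were low in the Rab5 siRNA livers. Rab5a was at 8.67 ± 0.23 in control and 6.86 ± 0.40 in Rab5 siRNA livers (SD, n = 4 each; adjusted p = 1.16e-05). Rab5c was at 9.21 ± 0.15 and 7.21 ± 0.16 (SD, n = 4 each; adjusted p = 1.64e-07). Rab5b, whose probe set was dim, differed by -0.24 (adjusted p = 0.194). Correlations between arrays ran from 0.942 to 0.991 across groups and reached 0.992 within them. The mean level of the hepatocyte markers was 12.94 to 13.01 in control, 12.98 and 13.03 in PBS and 12.77 to 12.80 in Rab5 siRNA livers, so the label of liver was borne out. In whole liver, more cells of a type and more RNA per cell cannot be told apart, and this holds for every member below.

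Short motifs like those of interferon response were more frequent in the members' promoters than in those of all genes. RefSeq promoters (build GRCm38.p6, from 250 bases before to 50 bases after the start) were found for 33 members. An ISRE-like motif, GAAANNGAA on either strand, stood in 21 of the 33 (63.6%), against 9.76% of all 27025 genes with a promoter in the table. A GAS-like motif, TTCNNNGAA, which may overlap the first, stood in 10 of the 33 (30.3%), against 9.55% of all genes. Both motifs were found among members that changed and members that were not called. Of the members called between Rab5 siRNA and control siRNA livers that had a promoter here, 5 of 10 held the ISRE-like motif, against 13 of 20 (65.0%) of the tested members that were not called. For the GAS-like motif the counts were 4 of 10 (40.0%) and 6 of 20 (30.0%).

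The promoters below are those of the 5 called members that held the ISRE-like motif, followed by Ifit1 and Ifit3, which held 3 matches each and were not called; both were chosen after their values were seen. Capitals mark matches to either motif, and each line runs 5′ to 3′ on the strand of the gene. Cxcl9 is from chr5:92328030-92328329 (minus strand), Oas1a from chr5:120907476-120907775 (minus), Ddx58 from chr4:40239776-40240075 (minus), Ifih1 from chr2:62646206-62646505 (minus), Eif2ak2 from chr17:78882523-78882822 (minus), Ifit1 from chr19:34640639-34640938 (plus) and Ifit3 from chr19:34583279-34583578 (plus).
Cxcl9: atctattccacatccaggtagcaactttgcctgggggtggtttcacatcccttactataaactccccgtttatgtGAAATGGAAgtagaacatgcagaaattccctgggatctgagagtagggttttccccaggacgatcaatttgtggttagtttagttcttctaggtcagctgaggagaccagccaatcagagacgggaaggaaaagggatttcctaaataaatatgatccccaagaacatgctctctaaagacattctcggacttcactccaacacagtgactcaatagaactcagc
Oas1a: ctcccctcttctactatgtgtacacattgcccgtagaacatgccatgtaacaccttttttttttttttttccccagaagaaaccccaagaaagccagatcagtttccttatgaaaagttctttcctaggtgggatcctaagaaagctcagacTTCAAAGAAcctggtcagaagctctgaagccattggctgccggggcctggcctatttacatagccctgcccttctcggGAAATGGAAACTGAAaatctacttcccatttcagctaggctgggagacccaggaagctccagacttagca
Ddx58: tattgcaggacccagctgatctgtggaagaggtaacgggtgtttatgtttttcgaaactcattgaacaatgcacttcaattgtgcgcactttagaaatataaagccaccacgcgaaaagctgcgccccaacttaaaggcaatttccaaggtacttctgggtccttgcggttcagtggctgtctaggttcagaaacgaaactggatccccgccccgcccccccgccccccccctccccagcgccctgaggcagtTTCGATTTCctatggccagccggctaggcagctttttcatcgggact
Ifih1: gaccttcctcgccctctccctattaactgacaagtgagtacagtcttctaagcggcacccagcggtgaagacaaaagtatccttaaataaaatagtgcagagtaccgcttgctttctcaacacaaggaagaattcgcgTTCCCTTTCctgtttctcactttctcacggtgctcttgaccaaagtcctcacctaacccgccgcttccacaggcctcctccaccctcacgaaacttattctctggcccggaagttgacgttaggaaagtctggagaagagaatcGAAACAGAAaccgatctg
Eif2ak2: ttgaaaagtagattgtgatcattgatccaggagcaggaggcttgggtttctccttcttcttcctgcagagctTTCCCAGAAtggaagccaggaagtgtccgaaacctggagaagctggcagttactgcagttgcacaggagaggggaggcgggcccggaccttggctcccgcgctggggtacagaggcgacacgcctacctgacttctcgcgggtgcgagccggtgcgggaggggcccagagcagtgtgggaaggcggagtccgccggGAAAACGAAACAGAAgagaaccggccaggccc
Ifit1: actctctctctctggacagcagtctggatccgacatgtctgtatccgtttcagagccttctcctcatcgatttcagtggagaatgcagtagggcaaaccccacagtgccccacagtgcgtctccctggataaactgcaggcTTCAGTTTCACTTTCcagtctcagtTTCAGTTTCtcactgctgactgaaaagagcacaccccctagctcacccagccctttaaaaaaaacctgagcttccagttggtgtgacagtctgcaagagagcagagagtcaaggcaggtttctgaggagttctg
Ifit3: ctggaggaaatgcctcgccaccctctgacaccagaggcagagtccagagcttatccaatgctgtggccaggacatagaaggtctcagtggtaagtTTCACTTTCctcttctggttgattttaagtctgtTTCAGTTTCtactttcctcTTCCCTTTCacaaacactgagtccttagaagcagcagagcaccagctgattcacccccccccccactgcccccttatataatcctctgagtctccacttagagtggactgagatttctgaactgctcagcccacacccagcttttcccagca
The matches in Oas1a and Eif2ak2 were pairs that share letters. Ifit1 held such a pair and a further match. A match describes these letters and does not show that a factor binds there.

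The control siRNA particles left no member called against PBS, where 0 percent of all 12855 genes were called higher and 0 percent lower. On the probe sets that stood for them, the differences of the 39 members ran from -0.32 to 0.31 with a median of -0.02, beside a median of -0.01 over all genes. At an unadjusted p under 0.05, limma gave 1 member higher, Oas3, and 1 lower, Eif2ak2, beside 305 higher and 249 lower of all genes. Other settings called from 0 to 16 of all genes higher and from 0 to 2 lower, the most without control siRNA replicate 4, and 0 members in each setting run.

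On the probe sets that stood for the genes, these values bound the response to the control particles on day 5. The 95% interval of the difference lay within 1 log2 unit for 39 of 39 members and within 0.5, a 1.41-fold change, for 25 of 39. The lowest lower bound was -0.63, for Ifit1, and the highest upper bound was 0.76, for Cxcl10, the chemokine also known as IP-10. Rsad2, which encodes the antiviral enzyme viperin, was at 8.74 and 8.35 in PBS livers and at 8.40, 8.29, 8.25 and 8.22 in control siRNA livers. Ifit1, whose protein binds viral RNA caps, was at 7.19 and 6.95 with PBS and at 7.07, 6.68, 6.78 and 6.96 with the control siRNA. A dimmer Rsad2 probe set was at 6.95 and 6.44 with PBS and at 6.32, 5.98, 6.22 and 5.86 with the control siRNA. These groups did not overlap, and the difference of -0.60 (SE 0.17), beyond the range above, was not called (adjusted p = 0.914 over all probe sets, unfiltered). On the brighter Rsad2 probe set and for Ifit1, PBS replicate 1 lay above all 4 control arrays. With 2 PBS arrays, changes within the 95% intervals could have gone unseen, and only day 5 was sampled. The lack of a call alone does not exclude a larger change. Over all genes, 21 differed by at least 1 log2 unit between control siRNA and PBS livers, and 0 were called.

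Rab5 siRNA livers held more RNA of 13 of the 39 members than control siRNA livers and less of 1, Cxcl9, at a limma adjusted p under 0.05. Of all genes tested, 13.8 percent were called higher and 9.51 percent lower. The differences were small: all 39 lay between -0.81 and 0.91, none reached 1 log2 unit, and the median was 0.16, beside 0.0026 over all genes. The difference was above 0 for 30 members and below 0 for 9. The 4 Rab5 siRNA arrays lay above all 4 control arrays for 12 members, 11 of them called, and below for 1. Over all genes such separation was found for 13.8 percent upward and 11.2 percent downward. Over the 39 members the mean level per array was 6.97 to 7.18 with the control siRNA, 7.15 and 6.96 with PBS, and 7.17 to 7.42 with Rab5 siRNA.

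**Figure D1:**
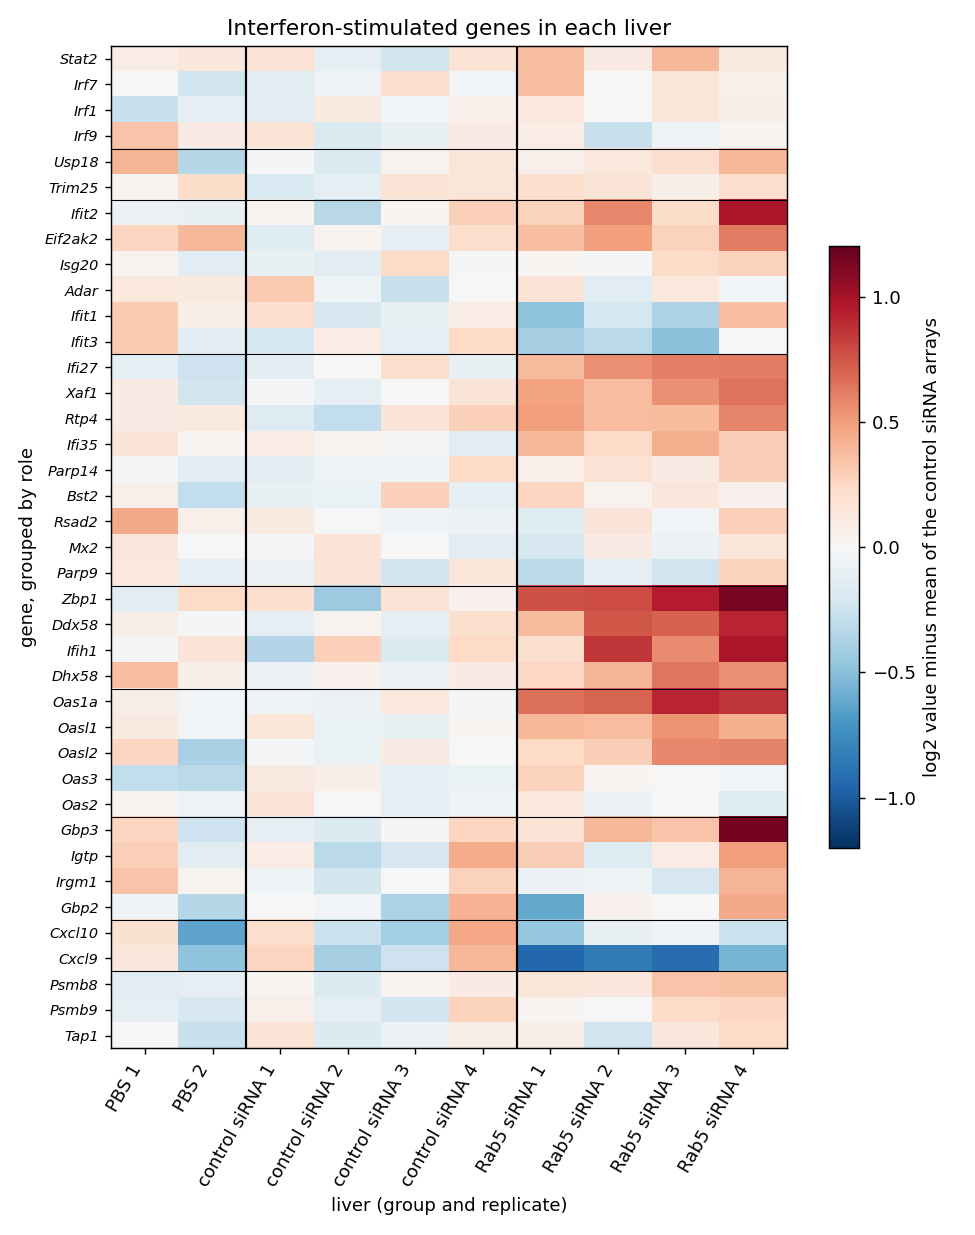
Each cell gives the log2 value of 1 tested member on 1 array minus that member's mean over the 4 control siRNA arrays, with members grouped by role and arrays by group (2 PBS, 4 control siRNA, 4 Rab5 siRNA). The sensors and several oligoadenylate synthetases are raised on all 4 Rab5 siRNA arrays, Cxcl9 is lowered on them, and no member was called between the PBS and control columns.

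**Figure D2:**
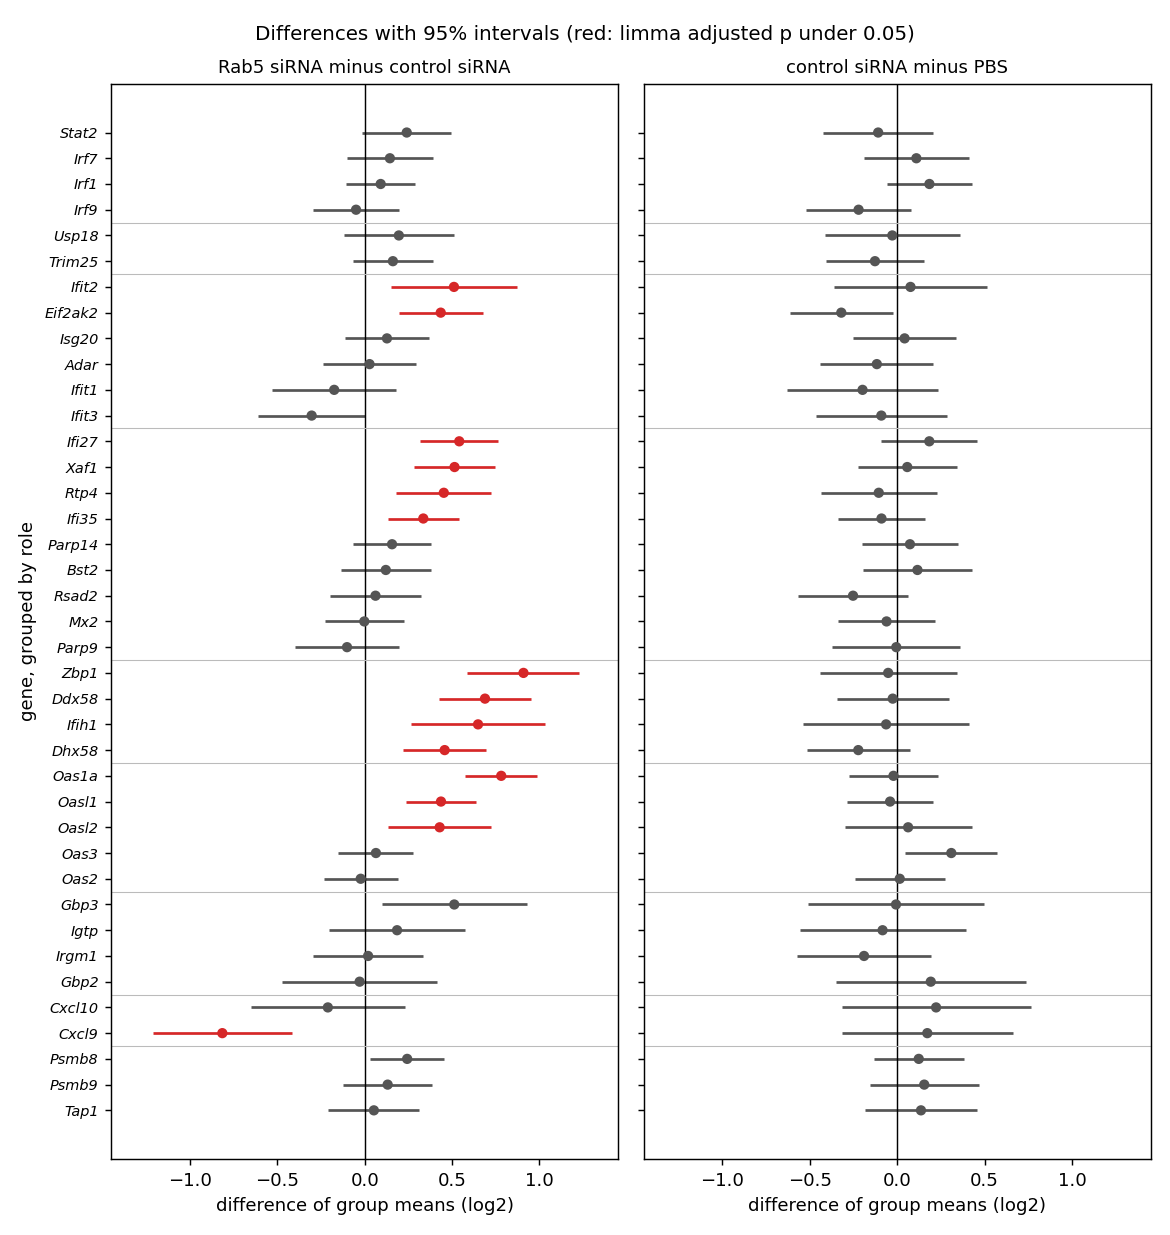
Points are log2 differences of group means for the 39 tested members and bars their 95% intervals from limma, Rab5 siRNA minus control siRNA on the left (4 arrays against 4) and control siRNA minus PBS on the right (4 against 2). Red marks adjusted p under 0.05, which 14 members reached on the left and 0 on the right.

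The 4 members listed as RNA and DNA sensors, Zbp1, Ddx58, Ifih1 and Dhx58, rose. Zbp1, which binds Z-form nucleic acid and can start necroptosis, was at 6.67, 6.03, 6.64 and 6.52 in the control livers and at 7.23, 7.25, 7.41 and 7.60 in the Rab5 siRNA livers. The PBS livers, at 6.34 and 6.70, lay below all 4 Rab5 siRNA livers, as did the control livers. The difference was 0.91 (SE 0.15, adjusted p = 0.000621), the largest rise among the members. The other Zbp1 probe set differed by 0.59 (adjusted p = 0.00303 over all probe sets, unfiltered). Ddx58, the sensor of short double-stranded RNA with a 5′ triphosphate, was at 7.22, 7.37, 7.22 and 7.52 with the control siRNA and at 7.71, 8.08, 8.04 and 8.25 with Rab5 siRNA. Its PBS values of 7.40 and 7.31 lay among the controls, below every Rab5 siRNA liver. The difference was 0.69 (SE 0.12, adjusted p = 0.00107). A dimmer probe set of the gene differed by 0.35 and was not called (adjusted p = 0.147 over all probe sets, unfiltered).

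Ifih1, the sensor of long double-stranded RNA, was at 7.04, 7.68, 7.23 and 7.63 in control livers and at 7.59, 8.25, 7.96 and 8.37 in Rab5 siRNA livers, with PBS at 7.37 and 7.55. Here the groups overlapped, since Rab5 siRNA replicate 1 lay below control replicates 2 and 4. The difference was 0.65 (SE 0.18, adjusted p = 0.0185). It was no longer called without control siRNA replicate 1 (adjusted p = 0.0569), control replicate 3 (0.0542), Rab5 siRNA replicate 2 (0.0597) or Rab5 siRNA replicate 4 (0.0558). Dhx58, or LGP2, which tunes the signalling of both other RNA sensors, was at 6.01, 6.14, 6.01 and 6.18 with the control and at 6.33, 6.49, 6.73 and 6.63 with Rab5 siRNA. These groups were apart by 0.46 (SE 0.11, adjusted p = 0.00898), but of the PBS livers, at 6.45 and 6.16, replicate 1 lay above Rab5 siRNA replicate 1.

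Of the 5 oligoadenylate synthetase genes tested, 3 rose and the difference of each of the other two was near 0. These enzymes and their relatives bind double-stranded RNA, and the active ones make the messenger that switches on RNase L. Oas1a was at 7.64, 7.61, 7.81 and 7.66 in control livers and at 8.34, 8.38, 8.59 and 8.54 in Rab5 siRNA livers, with PBS at 7.75 and 7.65. No Rab5 siRNA array came within 0.5 of any control or PBS array. The difference of 0.78 (SE 0.10) had the smallest adjusted p of the members, 6.54e-05. Oas1a lies next to its close relative Oas1g, and which of them the probe set read is uncertain.

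Oasl1, known in mouse as an inhibitor of Irf7 translation, was at 7.13, 6.90, 6.89 and 7.0 with the control siRNA and at 7.38, 7.35, 7.52 and 7.41 with Rab5 siRNA, a difference of 0.44 (SE 0.09, adjusted p = 0.00421). Oasl2 was dimmer, at 4.96, 4.90, 5.08 and 4.98 against 5.22, 5.28, 5.56 and 5.58, a difference of 0.43 (SE 0.14, adjusted p = 0.0378). Neither pair of groups overlapped, although PBS replicate 1 stood above 1 Rab5 siRNA array for Oasl2. The PBS livers were at 7.09 and 6.95 for Oasl1 and at 5.24 and 4.59 for Oasl2. The Oasl2 call was lost without any of the control replicates 1 to 4 (adjusted p = 0.0766, 0.0886, 0.0534 and 0.0684) or without Rab5 siRNA replicate 2, 3 or 4 (0.0514, 0.106 and 0.0978). Oas2 differed by -0.02 (SE 0.10) and Oas3 by 0.06 (SE 0.10).

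**Figure D3:**
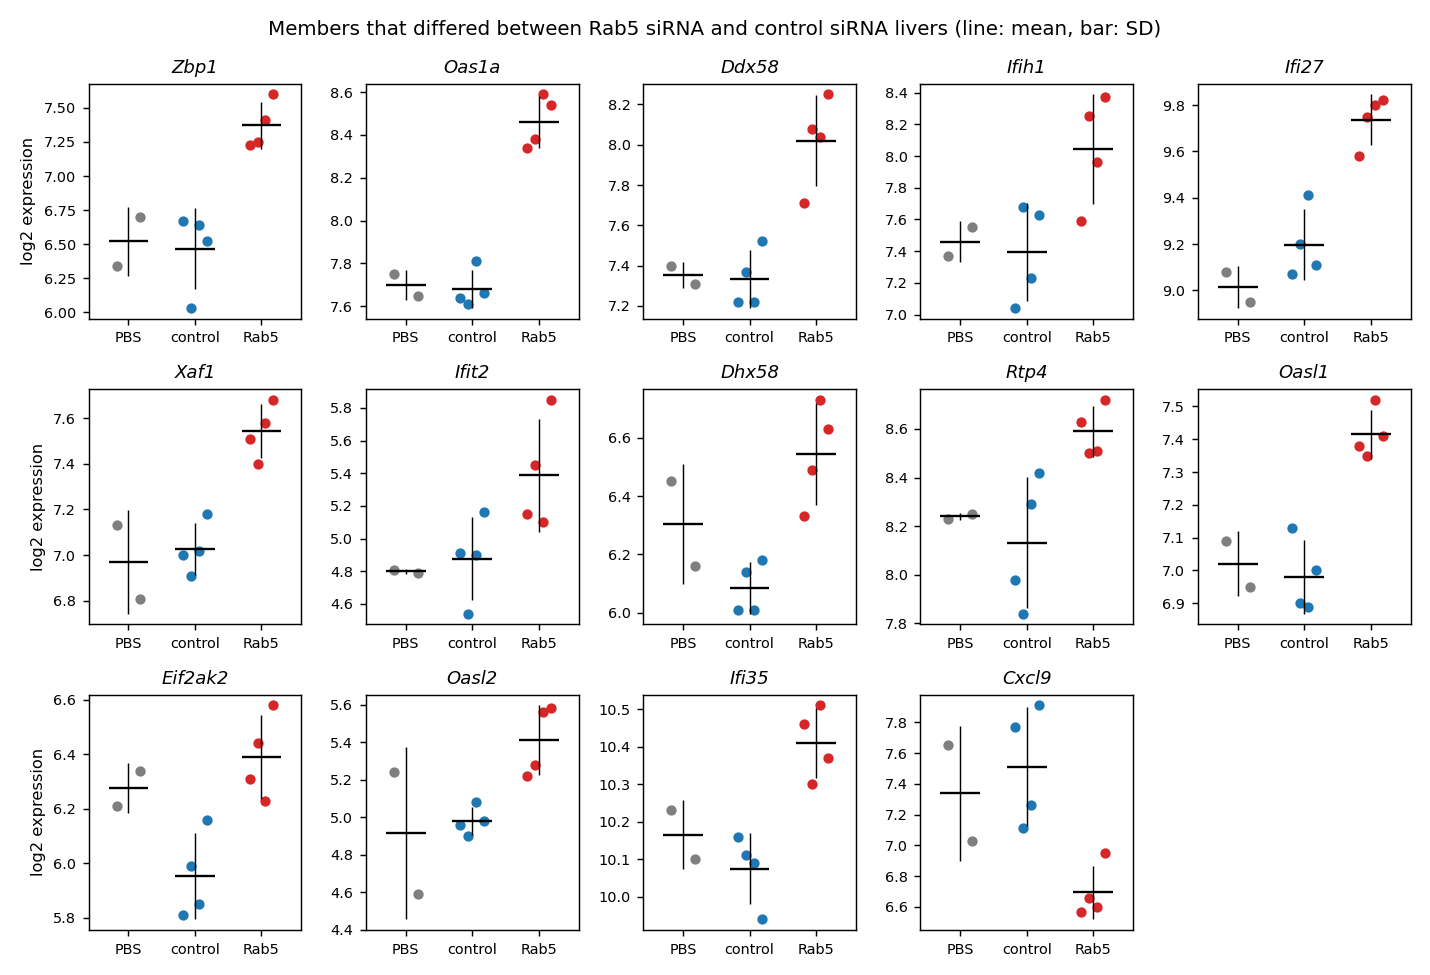
Points are the log2 values of single arrays for the members called between Rab5 siRNA and control siRNA livers, by group, with a horizontal line at the group mean and a vertical bar for the SD; each panel has its own vertical scale. Cxcl9 is lower on all 4 Rab5 siRNA arrays than on every control and PBS array, while Ifih1 and Ifit2 overlap between groups.

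Among the proteins that bind or act on RNA, Eif2ak2 and Ifit2 rose and the other 4 were not called. Eif2ak2, or PKR, the kinase that stops translation on double-stranded RNA, was at 5.81, 5.99, 5.85 and 6.16 in control livers and at 6.31, 6.44, 6.23 and 6.58 in Rab5 siRNA livers (difference 0.44, SE 0.11, adjusted p = 0.0121). The PBS livers were at 6.21 and 6.34, above every control liver, so that Rab5 siRNA differed from PBS by 0.12 (adjusted p = 0.639). Ifit2, of the IFIT family that binds foreign RNA, was at 4.91, 4.54, 4.90 and 5.16 with the control, at 5.15, 5.45, 5.10 and 5.85 with Rab5 siRNA and at 4.81 and 4.79 with PBS. The groups overlapped, the difference was 0.51 (SE 0.17), and the adjusted p was 0.0410. It lay between 0.0561 and 0.121 without control replicate 1, 2 or 3, either PBS replicate, or Rab5 siRNA replicate 2 or 4.

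The relatives Ifit3 and Ifit1 had differences below 0 and were not called. Ifit3 was at 6.36, 6.66, 6.46 and 6.81 with the control and at 6.17, 6.25, 6.08 and 6.58 with Rab5 siRNA (difference -0.30, SE 0.14, adjusted p = 0.147). Ifit1 differed by -0.17 (SE 0.16, adjusted p = 0.487). Isg20, an exonuclease, differed by 0.13 and Adar, the enzyme that edits adenosine in double-stranded RNA, by 0.03.

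Of the 9 other antiviral effectors tested, 4 rose. Ifi27, a small membrane protein gene, was at 9.07, 9.20, 9.41 and 9.11 in control livers and at 9.58, 9.75, 9.80 and 9.82 in Rab5 siRNA livers, with PBS at 9.08 and 8.95. The groups did not overlap, and the difference was 0.54 (SE 0.10, adjusted p = 0.00200). A second probe set of Ifi27 differed by 0.40 (adjusted p = 0.0193 over all probe sets, unfiltered). Xaf1, whose protein binds the apoptosis inhibitor XIAP, was at 7.0, 6.91, 7.02 and 7.18 against 7.51, 7.40, 7.58 and 7.68 (difference 0.51, SE 0.11, adjusted p = 0.00345). Its PBS livers, at 7.13 and 6.81, lay below all 4 Rab5 siRNA livers.

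Rtp4, an interferon-inducible chaperone of receptors, was at 7.98, 7.84, 8.29 and 8.42 in control livers and at 8.63, 8.5, 8.51 and 8.72 in Rab5 siRNA livers (difference 0.45, SE 0.13, adjusted p = 0.0193), with PBS at 8.23 and 8.25. The Rtp4 call was lost without control replicate 1 (adjusted p = 0.0572), control replicate 2 (0.0585) or Rab5 siRNA replicate 4 (0.0523). Ifi35 was at 10.16, 10.11, 10.09 and 9.94 against 10.46, 10.30, 10.51 and 10.37 (difference 0.34, SE 0.09, adjusted p = 0.0195), and both its other probe sets, at 0.14 and 0.21, were not called. The PBS livers were at 10.23 and 10.10 for Ifi35. The Ifi35 call was lost without control replicate 4 (0.0589) or Rab5 siRNA replicate 3 (0.0609), and with the mean of its probe sets (difference 0.23, 0.0678). Parp9, Parp14, Bst2 (tetherin), Rsad2 and Mx2 differed by -0.10 to 0.16 and were not called. Mx1, which carries a defective allele in C57BL/6 mice, was at 3.47 to 3.61 in control and 3.52 to 3.63 in Rab5 siRNA livers.

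Cxcl9, a chemokine that draws T cells and is a classic target of interferon gamma, fell. It was at 7.77, 7.11, 7.26 and 7.91 in control livers, at 7.65 and 7.03 in PBS livers and at 6.57, 6.66, 6.6 and 6.95 in Rab5 siRNA livers. Every Rab5 siRNA array lay below every control and PBS array. The difference was -0.81 (SE 0.19, adjusted p = 0.00613). The other Cxcl9 probe set differed by -0.71 (adjusted p = 0.00606 over all probe sets, unfiltered). Cxcl10, its near neighbour in the genome, was at 5.83, 5.36, 5.21 and 6.08 in control and 5.17, 5.53, 5.58 and 5.36 in Rab5 siRNA livers. These ranges overlapped and the difference of -0.21 was not called (SE 0.20, adjusted p = 0.503).

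None of the 4 transcription factors among the members was called. Stat2 differed by 0.24 (SE 0.12, adjusted p = 0.168), Irf7, which amplifies the type I interferon response, by 0.14 (adjusted p = 0.400), Irf1 by 0.09 and Irf9 by -0.05. Usp18, which removes ISG15 from proteins and damps the interferon receptor, was at 7.35, 7.21, 7.41 and 7.52 against 7.43, 7.5, 7.57 and 7.77 (difference 0.20, adjusted p = 0.373). Trim25, the ubiquitin ligase that acts on RIG-I, differed by 0.16 (adjusted p = 0.303) on its brightest probe set. A dimmer probe set of Trim25 differed by 0.69, and was called when the most variable probe set stood for each gene (adjusted p = 0.0377).

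The GTPases that guard against intracellular pathogens and the peptide-processing members gave no call. Gbp3 had the largest difference of the 4 GTPases, 0.51 (SE 0.19, adjusted p = 0.0714), from 5.38, 5.32, 5.5 and 5.74 to 5.65, 5.88, 5.83 and 6.63. With the replicate number as a block Gbp3 was called (adjusted p = 0.0155), as it was without Rab5 siRNA replicate 1 (0.0275) or with array weights (0.0455). Igtp differed by 0.19, Irgm1 by 0.02 and Gbp2 by -0.03. The immunoproteasome subunit Psmb8 was at 7.85, 7.65, 7.85 and 7.91 in control and 7.96, 7.95, 8.16 and 8.17 in Rab5 siRNA livers. Those groups did not overlap, yet the difference of 0.24 was not called (SE 0.10, adjusted p = 0.0917). Psmb9 differed by 0.13 and Tap1, a chain of the peptide transporter, by 0.05.

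Against PBS, Rab5 siRNA livers held more RNA of 6 members and less of 0, where 9.53 percent of all genes were called higher and 7.59 percent lower. This comparison shares its 4 Rab5 siRNA arrays with the one above. The 6 were Zbp1 (difference 0.86, SE 0.18, adjusted p = 0.00527), Oas1a (0.76, SE 0.12, 0.000568), Ifi27 (0.73, SE 0.13, 0.00141), Ddx58 (0.66, SE 0.15, 0.00729), Xaf1 (0.57, SE 0.13, 0.00823) and Oasl1 (0.40, SE 0.11, 0.0297). The median over the 39 members was 0.23, beside 0.0074 over all genes. At an unadjusted p under 0.05, 13 members were higher and 2 lower. Cxcl9 differed by -0.64 (adjusted p = 0.0713).

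With 2 PBS arrays these calls leaned on single livers. Without PBS replicate 1, Zbp1 (adjusted p = 0.102) and Oasl1 (0.0844) were not called and Oasl2 was (difference 0.81, 0.0127). Without PBS replicate 2, Ddx58 (0.0738), Xaf1 (0.141) and Oasl1 (0.216) were not called, 3 members stayed higher, and Cxcl9 was called lower (-0.95, 0.0464). Without Rab5 siRNA replicate 1, 10 members were higher, with Ifih1 (0.0157), Ifit2 (0.0364), Oasl2 (0.0362) and Psmb8 (0.0379) added. Ifit2 was added without Rab5 siRNA replicate 3 (0.0478), which cost the Oasl1 call (0.0707). Oas3 (0.0491) and, as a fall, Ifit1 (-0.55, 0.0239) were added without Rab5 siRNA replicate 4, and Psmb8 (0.0491) without control replicate 2. Oas1a and Ifi27 were called in each of these settings.

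The 13 members that rose did so in each Rab5 siRNA liver, but by different amounts. These 13 were picked for being higher in these same arrays, so the counts describe the livers and give no further support. In Rab5 siRNA replicates 1 to 4, 11, 13, 12 and 13 of the 13 lay above every control array. The median rise over the control mean was 0.38, 0.49, 0.57 and 0.63. Rab5 siRNA replicate 4 was the highest array of its group for 25 of the 39 members, control replicate 4 for 17 and PBS replicate 1 for 31. Within groups the median SD of the members was 0.17 in control livers (0.15 over all genes) and 0.15 in Rab5 siRNA livers (0.16). Cxcl10 varied most in the PBS and control livers (SD 0.58 and 0.41) and Gbp2 in the Rab5 siRNA livers (0.44).

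Many macrophage genes were also higher in Rab5 siRNA livers. The counts of markers stand beside the 13.8 percent of all genes called higher and the 9.51 percent called lower in this comparison. Of 15 markers of Kupffer cells and macrophages, 9 were called higher in Rab5 siRNA than in control livers and 0 lower, Cd5l by 1.01 and Marco by 1.09. Their mean level was 8.18 to 8.52 in control, 8.24 and 8.39 in PBS, and 8.5, 9.06, 9.07 and 9.10 in Rab5 siRNA replicates 1 to 4. Replicate 1, within the control range for these markers, had the smallest median rise of the 13 members (0.38), and the order of the 4 livers was the same for both measures. Over all 39 members the order differed, with median rises of 0.16, 0.1, 0.15 and 0.29 in Rab5 siRNA replicates 1 to 4. Within the other groups the members and markers did not go together. Control replicate 2 had the highest marker level (8.52) and the lowest mean level of the members (6.97). PBS replicate 1 was above PBS replicate 2 for the members (7.15 against 6.96) and below it for the markers. Mean levels of the lymphocyte markers were 5.31 to 5.43 in control and 5.04 to 5.20 in Rab5 siRNA livers (1 of 7 called, lower). Differences of single lymphocyte markers ran from -1.38 to 0.15. Mean levels of the natural killer cell markers were 4.54 to 4.73 and 4.42 to 4.51 (0 of 3 called). Those of dendritic cells were 4.92 to 5.16 and 4.99 to 5.15 (0 of 5 called). Of other markers, 2 of 9 of hepatocytes and 4 of 9 of sinusoidal endothelium were called lower. Called higher were 3 of 10 of stellate cells and fibroblasts, 1 of 4 of cholangiocytes and 1 of 7 of monocytes and neutrophils. The last share, and that of the lymphocyte markers called lower, lay near the shares of all genes. The part of cell makeup in the members' values was not tested.

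RNA quality probes differed between livers. The difference between the 3′ and 5′ Gapdh probe sets was highest on the array numbered 2 in each group, at 2.58 with PBS, 2.86 with the control siRNA and 2.67 with Rab5 siRNA, and was 2.15 to 2.38 on the others. The same difference for Actb followed the groups: it was 2.59, 2.75, 2.68 and 2.68 with Rab5 siRNA, below the 2.84, 3.23, 2.89 and 2.86 of the control siRNA and the 2.83 and 3.13 of PBS. Its part in the members' values was not tested. With array 2 of each siRNA group left out, a setting added after the data were seen, 8 members were called higher and 1 lower. Lost were Eif2ak2 (adjusted p = 0.0685), Ifi35 (0.0510), Ifit2 (0.222), Oasl2 (0.110) and Rtp4 (0.0873). Over all genes 1065 were then called higher and 736 lower, against 1771 and 1222.

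The rest of the interferon pathway was read from 9 further lists, whose counts are Rab5 siRNA against control siRNA, to be read beside the 13.8 percent of all genes called higher and the 9.51 percent called lower. Of 12 interferon genes, 2 passed the filter, Ifna1 (-0.18) and Ifna2 (-0.22), and neither was called; Ifnb1 and Ifng were among the 6 below it. Of 8 receptor chains and receptor kinases tested, 3 rose and 0 fell. Ifngr1, the binding chain of the interferon gamma receptor, was at 7.01, 7.15, 7.25 and 7.01 in control and 8.14, 7.93, 8.10 and 7.98 in Rab5 siRNA livers (difference 0.93, SE 0.10, adjusted p = 1.95e-05). Il10rb, shared by the receptors of interleukin-10 and interferon lambda, rose by 0.75 (adjusted p = 0.000686) and Jak1 by 0.40 (adjusted p = 0.0153). The type I receptor chains Ifnar1 and Ifnar2 differed by 0.06 and -0.19 and were not called.

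Of 12 further sensors and adaptors tested, none rose and 1 fell, a share near that of all genes. It was Mavs, the adaptor of RIG-I and MDA5, which fell by 0.41 (adjusted p = 0.0210). None of 5 further STAT and IRF factors was called, with the largest difference at Irf2 (-0.25). Of 9 inhibitors of interferon signalling, 3 rose, Trim30a by 0.52 (adjusted p = 0.00858), Pias1 by 0.37 (0.0335) and Ptpn11 by 0.34 (0.0301). Of 28 further antiviral effectors, 8 rose and 0 fell, led by Ifi30 (0.93, adjusted p = 2.65e-05), a lysosomal thiol reductase, Ly6e (0.90, 0.00309), which blocks the entry of some viruses, and Lgals3bp (0.88, 2.13e-05), a secreted galectin ligand. None of 5 further GTPases was called, with the largest difference at Gbp7 (0.28).

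Of 16 genes of antigen presentation tested, 2 rose, a share below the 13.8 percent of all genes, and 5 fell. The 2 were the proteasome activator Psme1 (0.37, adjusted p = 0.0103) and the peptide transporter chain Tap2 (0.36, 0.0334). The largest falls were in MHC class II. H2-Aa was at 10.89, 9.99, 9.69 and 10.75 in control and 9.20, 9.0, 9.17 and 9.30 in Rab5 siRNA livers (difference -1.16, SE 0.22, adjusted p = 0.00205). Control replicates 1 and 4 were the highest for H2-Aa, as they were for Cxcl9. H2-Eb1 fell by 1.14 (adjusted p = 0.00347) and H2-Ab1 by 1.06 (0.00243). Of 8 further chemokines, 2 fell, Cxcl12 by 0.67 (0.00276) and Ccl5 by 0.56 (0.00890). Against PBS, 0 genes of these 9 lists were called in control siRNA livers.

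**Figure D4:**
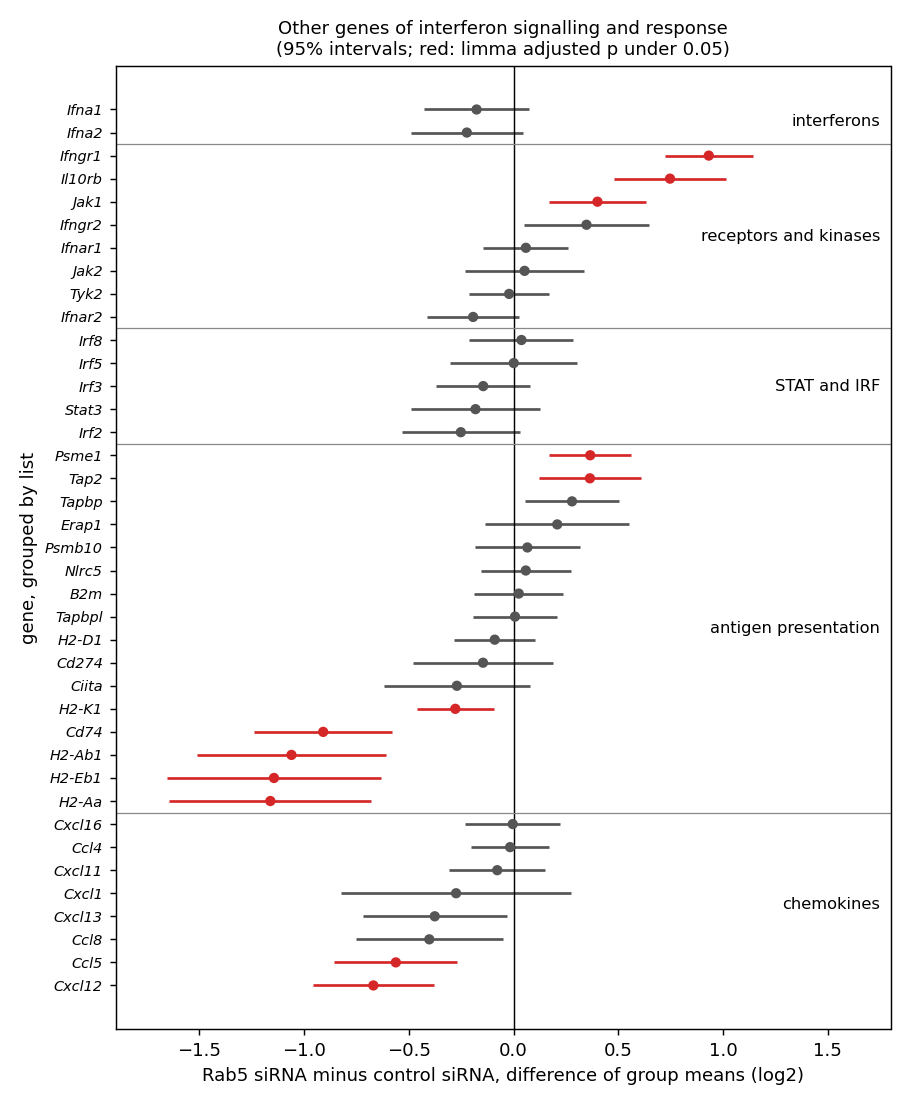
Points are log2 differences between Rab5 siRNA and control siRNA livers (4 arrays each) for single genes of 5 of the pathway lists (interferons, receptors and kinases, STAT and IRF factors, antigen presentation, chemokines), and bars are 95% intervals from limma, red at adjusted p under 0.05. Ifngr1, Il10rb and Jak1 lie above 0, while the class II genes and Cxcl12 and Ccl5 lie below it.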

How the data were processed

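Liver RNA was measured on 10 Affymetrix mouse genome expression arrays. The authors deposited log2 expression values, made with Affymetrix Expression Console, RMA and Partek 6.6 per the submitters' processing notes, which give no order. RMA equalises the arrays, so a shift of all transcripts would not be seen, and dim values are compressed. The members and gene lists were chosen with earlier results of these data known.

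Probe sets with 1 symbol in the platform annotation (34958; 932 had several) were kept if above the table's median (4.33) in at least 2 arrays (24281 of all probe sets). Of several kept probe sets, the brightest on average stood for the gene. Other probe sets of a member were read from a fit over all probe sets except 64 array control probe sets, without the filter. In called members, probe sets that failed the filter were dim, and none was called between Rab5 siRNA and control siRNA livers. Their differences were -0.17 for Rtp4, 0.24 for Xaf1, -0.06 for Ddx58, 0.09 and -0.05 for Eif2ak2, and 0.06 and 0.12 for Dhx58. Group means were estimated from all arrays together in limma 3.58.1 (lmFit and eBayes, R 4.3.3), and p-values were adjusted by Benjamini-Hochberg over 12855 genes. The fit was checked on simulated data for Rab5 siRNA against control siRNA. It recovered 22 of 50 changes of 0.5 log2 units and 95 of 100 changes of 1, with 9 false calls. In that comparison, a member that was not called may therefore have changed by about 0.5. Far fewer genes were changed in the simulation than were called in the data, so the share recovered may differ there. Comparisons with the 2 PBS arrays were not simulated. Each called member is given in every array. From each pathway list up to 3 called genes with the largest change are named, otherwise the 1 with the largest change; Ifnar1, Ifnar2 and other further names were added after their values were seen. The titles number the livers without saying that each is its own mouse, so the p-values reflect the spread among these arrays, whose number limits precision. Deviations from group means correlated between control and Rab5 siRNA arrays of the same number at 0.391, 0.149, 0.186 and 0.312. Control replicate 2 went more with Rab5 siRNA replicate 4 (0.183), and Rab5 siRNA replicate 2 more with control replicate 4 (0.199). The data thus bear out the pairing for numbers 1, 3 and 4 but not for number 2. The labels do not say what the number marks. Scan dates were not used here.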

Additional observations from a re-analysis of the deposited data

Results flagged for a closer look

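Bst2, which encodes the virus-tethering membrane protein tetherin, stood at 9.65 in control siRNA replicate 3, while the other 3 control livers lay between 9.25 and 9.28. It was picked out because the gap to the nearest liver took 0.93 of the group's range. Of 78 groups of 4 arrays examined over the 39 members this was the only 1 (1.28%), and chance marks about 1 in 20. Bst2 differed by 0.12 between Rab5 siRNA and control siRNA livers and was not called (adjusted p = 0.509).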

How the results depend on the processing

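The calls were recomputed under 20 alternatives and 1 added after the data were seen. Of the 14 members called between Rab5 siRNA and control siRNA livers, 8 were called in every setting run (Zbp1, Oas1a, Ddx58, Ifi27, Xaf1, Oasl1, Dhx58 and Cxcl9) and 6 were lost in some. No called difference changed sign. Leaving out single arrays gave 9 to 14 members higher, and leaving out the arrays numbered 2 of both siRNA groups gave 8. The replicate block gave 14 higher and 1 lower, and changed no call in this comparison other than that of Gbp3. For Rab5 siRNA against PBS, leaving out single arrays gave 3 to 10 higher and 0 to 1 lower, and array weights gave 10 higher. Cxcl9 (-0.72, adjusted p = 0.0148 with the block) made 1 lower under array weights, the mean of probe sets, the 2 groups alone and the replicate block. The block also added Ifih1 (0.51, adjusted p = 0.0282) and Oas3 (0.46, 0.0178), which made 8 higher; PBS and siRNA arrays share 2 numbers. Control siRNA against PBS gave 0 in each. Over all genes, those called higher and lower between Rab5 siRNA and control siRNA livers were 1065 and 736 without the arrays numbered 2. They were 1586 and 1492 with quantile normalization and 1870 and 1051 with median centring, beside 1771 and 1222 as reported. For Rab5 siRNA against PBS they were 673 and 440 without PBS replicate 1 and 679 and 615 without PBS replicate 2. Ifit2 and Oasl2 were too dim to be tested under the stricter filter at the 75th percentile. Signal near background has no measured floor here, which limits dim members such as Oasl2 and Ifit2.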

Other observations

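Several members lie side by side in the genome, by the gene order of RefSeq (GRCm38.p6), and neighbours did not always share a call between Rab5 siRNA and control siRNA livers. Oasl2 and Oasl1 are adjacent and both rose, by 0.43 and 0.44. Oas2 and Oas3 are adjacent to each other, with 4 coding genes between Oas3 and the pair Oas1g and Oas1a, and their differences were -0.02 and 0.06 beside 0.78 for Oas1a. Ifit2 and Ifit3 are adjacent, and their differences were 0.51, called, and -0.30, not called. Cxcl9 and Cxcl10 have 1 coding gene between them and differed by -0.81, called, and -0.21, not called. Psmb9, Tap1 and Psmb8 follow one another and differed by 0.13, 0.05 and 0.24, none of them called. Whether neighbours differ from each other was not tested.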
